A study of Mus musculus with 7 samples.

Results

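Nuclear-encoded subunits of the respiratory chain were compared between stromal cells sorted from mouse mammary tumors and from normal mammary fat pads. Members were the gene symbols of the deposited count table that match the naming of complex I (Nduf), complex II (Sdha to Sdhd), complex III (Uqcr and Cyc1), complex IV (Cox4 to Cox8) and complex V (Atp5), which gave 85 of the 24421 symbols listed, 16554 of them with a count in any library. The 85 members were 35 of complex I, 4 of complex II, 9 of complex III, 20 of complex IV and 15 of complex V, plus Atp5s and Atp5sl, which carry the Atp5 name without being subunits. Atp5s and Atp5sl were kept out of the complexes but are included in counts over all members. Ndufa4, now known as a complex IV subunit, and its relative Ndufa4l2 were counted with complex IV.

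The tumor libraries, named pCAF, came from BALB/c females given 100000 4T1-luc cells in a mammary fat pad at 8 weeks of age. 4T1-luc is a luciferase-expressing mouse mammary carcinoma line, and the tumors were taken once they measured 1 cm. Their cells were sorted as Ter119-, CD45-, EpCAM- and PDPN+, where podoplanin (PDPN) is a surface protein of fibroblasts and lymphatic endothelium (n = 3). The libraries named NMF came from untreated BALB/c mice of 12 weeks, sorted as Ter119-, CD45- and EpCAM- with no PDPN gate (n = 4). The series' design calls these mice age matched, while the labels give 8 weeks for pCAF, the age at injection, and no age at harvest. Both sorts thus gated against red cells, leukocytes and epithelium, and pCAF alone was narrowed to PDPN+ cells. Tumor and fat pad were also digested with different collagenase preparations, and the 3′ ends of polyadenylated RNA were sequenced.

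The respiratory chain sits in the inner mitochondrial membrane. Complexes I and II pass electrons from NADH and succinate to ubiquinone, complex III hands them to cytochrome c, complex IV reduces oxygen, and the proton gradient that complexes I, III and IV build drives ATP synthesis by complex V. Most subunits are encoded in the nucleus and imported, while a few core subunits of complexes I, III, IV and V are encoded by mitochondrial DNA. Tumor fibroblasts are widely studied for a shift between oxidative metabolism and glycolysis, and several complex IV subunits have tissue-restricted isoforms in muscle, brown fat, lung and testis.

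The pCAF replicates 1 to 3 held 2184389, 1885039 and 1900554 counts, against 2393024, 2223198, 2714492 and 4990070 in NMF replicates 1 to 4. One library in each group stood apart. In pCAF replicate 1, 11090 genes had a count, against 13409 and 13555 in pCAF replicates 2 and 3. In NMF replicate 4, 13222 genes had a count, against 14353, 14110 and 14236 in NMF replicates 1 to 3. Whether this bears on the low counts of rare members in these libraries was not tested. A chi-square of the counts over all genes, divided by its degrees of freedom, was 2.93 between pCAF replicates 2 and 3 but 34.7 and 36.7 between each of them and pCAF replicate 1, and it was 6.04 to 9.35 among NMF replicates 1 to 3 but 34.6 to 38.5 between these and NMF replicate 4. The counts, medians and sums of each complex, and the calls that change, are given with and without these libraries. The selection field of pCAF replicate 3 reads PDPN-, against its title and source. Summed fibroblast markers ran from 69001 to 80265 CPM (counts scaled to a common library size) in pCAF and from 22031 to 41131 CPM in NMF, with 5 of 7 higher in pCAF. One of these 5 is Pdpn, the gene of the protein on which pCAF alone was gated. Another of the 7 was not called at a log2 fold change of -0.85, with every pCAF library below every NMF library. Markers of blood endothelium summed to 54.3 to 70.9 CPM in pCAF, against 1643 to 2833 CPM in NMF, with 10 of 10 lower. Adipocyte markers summed to 184 to 240.0 CPM in pCAF, against 1873 to 15578 CPM in NMF, with 4 of 5 tested lower and Plin1, Cidec, Lep and Pck1 at 0 counts in pCAF. Mural cell markers summed to 163 to 255 CPM in pCAF and to 336 to 525 CPM in NMF, with 4 of 8 lower and Higd1b at 0 counts in pCAF. The part that these cell types play in the results on the respiratory chain was not tested, and in bulk samples fewer cells of a type and less RNA per cell cannot be told apart. The table held no mitochondrially encoded gene, so the mitochondrial subunits were not analysed here.

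Most members had higher fitted levels in pCAF, and the difference passed the test for a minority of them. Of the 79 members tested, 17 were higher in pCAF (21.5%, against 14.3% of all 10535 genes tested) and 1 was lower (1.27%, against 14.2% of all genes tested) by edgeR's quasi-likelihood test at a Benjamini-Hochberg adjusted p under 0.05. The log2 fold change of pCAF over NMF was positive for 59 members and negative for 20, with a median of 0.44, beside a median of -0.02 over all genes tested. In 28 members every pCAF library was above every NMF library (35.4%, against 19.0% of all genes tested), and in 6 every pCAF library was below (7.59%, against 21.4%). Atp5s and Atp5sl, which are not subunits, were among these 6 and among the 20 negative members. The 6 untested members had too few counts. Leaving out NMF replicate 1, 2 or 3 gave 11, 10 or 11 higher members (14.1, 12.8 and 14.1% of those tested), with 9.96, 9.92 and 11.0% of all genes tested higher in the same fits. In these fits 1 member was lower, with 9.6, 10.2 and 10.3% of all genes tested. Leaving out pCAF replicate 2 gave 14 higher and 1 lower (11.1% and 10.2% of all genes tested). Leaving out pCAF replicate 1 gave 23 higher and 2 lower members (18.3% and 19.8% of all genes tested), leaving out pCAF replicate 3 gave 13 higher and 2 lower (10.5% and 10.3% of all genes tested), and leaving out NMF replicate 4 gave 15 higher and 3 lower (15.1% and 13.4% of all genes tested). Without pCAF replicate 1 and NMF replicate 4 together, 28 of 80 tested members were higher and 9 were lower, with 25.9% and 26.9% of all genes tested in that comparison, and the members' median was 0.17. With library totals in place of TMM factors, the median of all genes was -0.26 and that of the members 0.19. Then 11 members were higher and 2 lower (13.9% and 2.53%, against 10.6% and 18.1% of all genes tested). The 2 lower were Cox8b and Atp5sl.

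**Figure D1:**
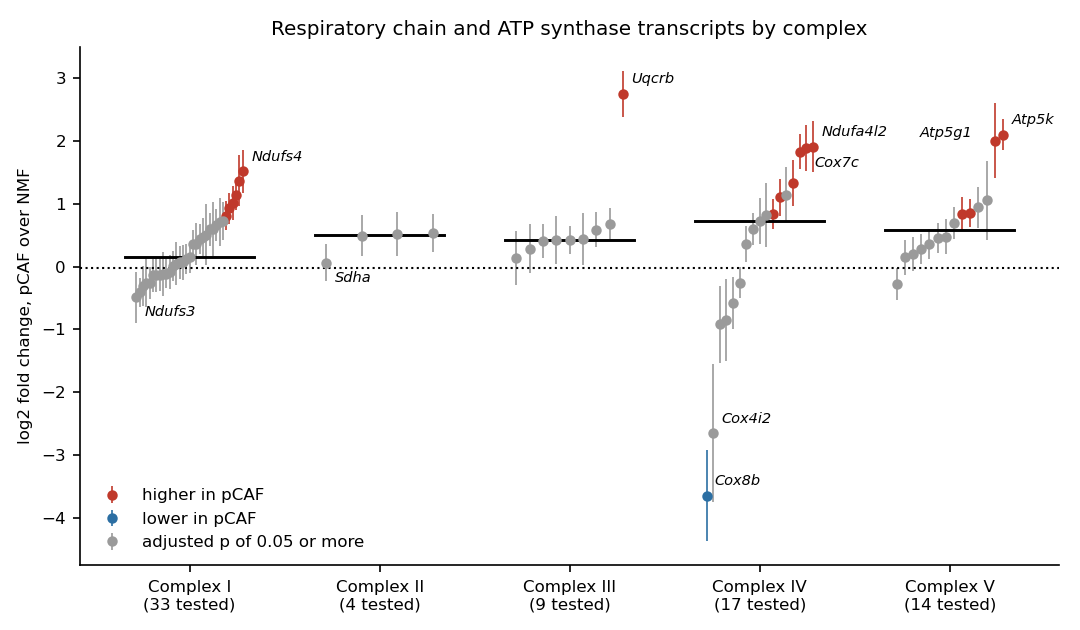
Each point is one tested subunit, with its fitted log2 fold change of pCAF over NMF and a line of 1 SE either way on the vertical axis and its complex on the horizontal axis; black bars are medians, the dotted line is the median of all genes tested, and colors mark members higher, lower or not called at an adjusted p of 0.05. Uqcrb at 2.75 and Atp5k at 2.10 stand at the top and Cox8b at -3.65 at the bottom, and the complex medians run from 0.15 in complex I to 0.73 in complex IV.

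In complex I, which oxidizes NADH, 6 of 33 tested members were higher in pCAF and none was lower. The higher share was 18.2%, against 14.3% of all genes tested, of which 14.2% were lower. The median log2 fold change was 0.15, and it was 0.05 without pCAF replicate 1 and NMF replicate 4, with 8 higher and 4 lower. These 8 and 4 were 24.2% and 12.1%, against 25.9% and 26.9% of all genes tested in that fit. The median was -0.10 under library totals, where the median of all genes was -0.26. At an unadjusted p under 0.05, 9 of the 33 members passed, against 4221 of all 10535 genes tested. Leaving out NMF replicate 1 gave 3 higher members, and leaving out NMF replicate 3 or pCAF replicate 3 gave 4, while leaving out pCAF replicate 1 gave 1 lower, Ndufs7. Of all genes tested, 9.96% were higher without NMF replicate 1, 11.0% without NMF replicate 3 and 10.5% without pCAF replicate 3. Without pCAF replicate 1, 19.8% of all genes tested were lower. The 7 core subunits, which hold the flavin and iron-sulfur clusters, had a median of -0.11 with 1 higher, and the 26 tested accessory subunits had a median of 0.29 with 5 higher. Ndufs1, the large iron-sulfur subunit of the arm that reaches into the matrix, had 80.4, 96.9 and 97.6 CPM in pCAF replicates 1 to 3, against 57.9, 48.1, 50.7 and 52.3 CPM in NMF replicates 1 to 4. Every pCAF library was above every NMF library, at a fold of 1.75 (adjusted p = 0.0254). Leaving out pCAF replicate 2 or 3 ended the call (adjusted p = 0.0896 and 0.0891), as did leaving out NMF replicate 1, 2 or 3 (0.0551, 0.0797 and 0.0730).

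The other core subunits described here did not pass the test with all libraries. Ndufv1, which binds NADH and carries the flavin, had 355, 151 and 139 CPM in pCAF, against 155, 175, 175 and 167 CPM in NMF, and its log2 fold change of 0.36 (adjusted p = 0.470) was -0.22 without pCAF replicate 1. Its iron-sulfur neighbor Ndufv2 had 275, 194 and 217 CPM in pCAF, against 182, 164, 194 and 175 CPM in NMF, with no overlap between the groups but almost none to spare, at 0.35 (adjusted p = 0.292). Ndufv1 was high in pCAF replicate 1 alone, whereas Ndufv2 was above NMF in all 3 pCAF libraries. Of the subunits that lead electrons to ubiquinone, Ndufs3 had a log2 fold change of -0.49, Ndufs7 of -0.11 and Ndufs8 of -0.13, with adjusted p between 0.404 and 0.843. Ndufs7 had 320.0, 142 and 125 CPM in pCAF, against 170.0, 261, 216 and 199.8 CPM in NMF. Without pCAF replicate 1, the library with the highest value, Ndufs7 was lower in pCAF (adjusted p = 0.0458, fold 0.629).

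The accessory subunits that rose were Ndufs4, Ndufb2, Ndufa5, Ndufc1 and Ndufa2. Ndufs4, an assembly-critical subunit of the matrix arm whose loss in mice gives an encephalopathy, had 227, 116 and 116 CPM in pCAF replicates 1 to 3, against 38.6, 55.7, 77.1 and 42.8 CPM in NMF replicates 1 to 4. All 3 pCAF libraries were above NMF, pCAF replicate 1 most of all, at a fold of 2.86 (log2 1.52 ± 0.34 SE, adjusted p = 0.00876). The call held without each single library. Ndufa5, a small subunit of the same arm, had 181, 171 and 222 CPM in pCAF replicates 1 to 3, against 86.5, 68.4, 94.3 and 97.7 CPM in NMF replicates 1 to 4. The groups were clearly separated, at a fold of 2.20 (log2 1.14 ± 0.24 SE, adjusted p = 0.00590), and the call held under every alternative run. Ndufa2, also of the matrix arm, averaged 608 ± 90.4 CPM in pCAF and 320.0 ± 40.0 CPM in NMF (SD, n = 3 and 4), at a fold of 1.90 (adjusted p = 0.0166), which held without each single library.

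Ndufc1 and Ndufb2 belong to the membrane arm, and both calls depended on single libraries. Ndufc1 averaged 77.3 ± 5.86 CPM in pCAF and 38.3 ± 9.16 CPM in NMF, at a fold of 2.02 (adjusted p = 0.0194), and was not called without pCAF replicate 3 (adjusted p = 0.0653) or NMF replicate 1 (0.0658). Ndufb2 had 549, 230.4 and 212 CPM in pCAF, against 111, 182, 144 and 75.3 CPM in NMF, so that pCAF replicate 1 was more than its 2 partners together. Its fold of 2.58 (adjusted p = 0.0294) was 1.73 without pCAF replicate 1 (adjusted p = 0.0703), and the call was also lost without NMF replicate 1, 3 or 4 (adjusted p = 0.0905, 0.0633 and 0.0648). The 3′ end of Ndufb2 has a pseudogene copy elsewhere in the genome and also overlaps the neighboring genes at its own locus, so its counts are uncertain. Ndufa1 and Ndufb5, likewise of the membrane arm, were higher without pCAF replicate 1 (adjusted p = 0.0258 and 0.0493) but not with all libraries (0.0756 and 0.104). The other accessory subunits tested ran from -0.41 for Ndufb7 to 0.71 for Ndufa3 on the log2 scale.

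Complex II, succinate dehydrogenase, is the only complex encoded wholly in the nucleus and also a step of the tricarboxylic acid cycle. All 4 subunits had positive log2 fold changes, and none passed the test at an adjusted or an unadjusted p of 0.05. Of all 10535 genes tested, 4221 had an unadjusted p under 0.05. Their median was 0.50, and 0.05 without pCAF replicate 1 and NMF replicate 4, where 1 was higher, with 25.9% of all genes tested. Sdha, the flavoprotein that oxidizes succinate, had 189.7, 118 and 113 CPM in pCAF replicates 1 to 3, against 131, 109, 113 and 184 CPM in NMF replicates 1 to 4. The groups overlapped, with a log2 fold change of 0.06 (adjusted p = 0.904) that was -0.20 under library totals. The iron-sulfur subunit Sdhb had 540.2, 277 and 252 CPM in pCAF, against 226, 261, 272 and 228 CPM in NMF. The membrane anchor Sdhd had 268, 117 and 104 CPM in pCAF, against 93.1, 115, 112 and 137 CPM in NMF. In both, pCAF replicate 1 was far above its partners and the remaining libraries lay close together. The other anchor, Sdhc, had 172, 419 and 400.2 CPM in pCAF, against 232, 256, 274 and 177 CPM in NMF, with pCAF replicate 1 lowest of the 7 libraries. Without pCAF replicate 1, Sdhc was higher in pCAF at a fold of 1.74 (adjusted p = 0.0196), and the log2 fold change of Sdhd was -0.05, against 0.52 with it.

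Complex III had 9 positive log2 fold changes out of 9, with a median of 0.43, and 1 member passed the test. The median was 0.33, with 4 members higher, without pCAF replicate 1 and NMF replicate 4. The higher shares were 11.1% with all libraries and 44.4% without both, against 14.3% and 25.9% of all genes tested. Uqcrb (chr13:66900617-66905378 on mm10, minus strand, GENCODE M21), a small ubiquinone-binding subunit, had 221, 138 and 197 CPM in pCAF replicates 1 to 3, against 28.6, 22.4, 44.0 and 15.3 CPM in NMF replicates 1 to 4. Every pCAF library was far above the highest NMF library, and the fold was 6.75 (log2 2.75 ± 0.37 SE, adjusted p = 5.12e-04), the largest rise among the members. The call held under all 17 alternatives, while 3 copies of its 3′ end make the split of its reads uncertain. Uqcrc1, a core protein, had 315, 113 and 101 CPM in pCAF, against 158, 128, 120.0 and 174 CPM in NMF. Its log2 fold change of 0.28 (adjusted p = 0.634) rested on pCAF replicate 1 and was -0.44 without it. The Rieske iron-sulfur protein Uqcrfs1 moved the other way between libraries, with 56.6, 251 and 251 CPM in pCAF, against 154, 183, 179.9 and 161 CPM in NMF.

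Without pCAF replicate 1, Uqcrfs1, the core protein Uqcrc2 and the small subunit Uqcr10 were higher in pCAF (adjusted p = 0.0414, 0.0430 and 0.0156), at folds of 1.48, 1.76 and 1.75. With all libraries their adjusted p was 0.849, 0.460 and 0.0647. Cyc1, the heme subunit that passes electrons to cytochrome c, averaged 251 ± 63.3 CPM in pCAF and 189 ± 38.1 CPM in NMF (adjusted p = 0.290), with overlapping groups. The small subunits Uqcr11 and Uqcrq did not overlap between the groups, at 0.43 and 0.59 on the log2 scale (adjusted p = 0.180 and 0.144), and the hinge protein Uqcrh overlapped at 0.42.

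Complex IV, cytochrome c oxidase, had a median of 0.73, with 6 of 17 tested members higher and 1 lower. This was the highest median of the complexes with all libraries, but without pCAF replicate 1 and NMF replicate 4 it was 0.38, below the 0.45 of complex V, with 8 members higher and 3 lower. The higher shares were 35.3% with all libraries and 47.1% without both, against 14.3% and 25.9% of all genes tested. The lower shares were 5.88% and 17.6%, against 14.2% and 26.9%. Leaving out NMF replicate 2 gave 3 higher members, NMF replicate 3 gave 4, and NMF replicate 4 gave 3 lower. In the same fits 9.92% and 11.0% of all genes tested were higher and 13.4% were lower. Apart from Ndufa4l2, the members that rose were small subunits around the catalytic core. Cox7b (chrX:106015700-106022450 on mm10, plus strand, GENCODE M21) had 533, 295 and 316 CPM in pCAF replicates 1 to 3, against 100.4, 92.9, 117 and 118 CPM in NMF replicates 1 to 4. The groups were far apart, at a fold of 3.56 (log2 1.83 ± 0.28 SE, adjusted p = 9.83e-04), and no copy of its 3′ end was found. Cox7c had 925, 369.5 and 413 CPM in pCAF replicates 1 to 3, against 186, 157, 166 and 105 CPM in NMF replicates 1 to 4. All pCAF libraries were above all NMF libraries, at a fold of 3.71 (adjusted p = 0.00369), which was 2.29 without both libraries that stood apart. Cox7c has 4 copies of its 3′ end. Both calls held under every alternative run.

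Cox7a2, the widely expressed form of subunit VIIa, averaged 429 ± 171 CPM in pCAF and 171 ± 60.3 CPM in NMF, a fold of 2.50 (adjusted p = 0.0223) that was 1.65 without both libraries that stood apart. Cox6c averaged 465 ± 136 CPM in pCAF and 216 ± 50.4 CPM in NMF, a fold of 2.15 (adjusted p = 0.0185). Cox8a, the widely expressed form of subunit VIII, averaged 440.3 ± 44.3 CPM in pCAF and 246 ± 30.8 CPM in NMF, a fold of 1.79 (adjusted p = 0.0221). In all 3 genes every pCAF library was above every NMF library, yet each call depended on single libraries. Cox7a2 was not called without NMF replicate 2 or 3 (adjusted p = 0.0630 and 0.0516), and Cox6c was not called without NMF replicate 2 (0.0537). Cox8a was not called without pCAF replicate 2 or 3 (adjusted p = 0.0701 and 0.0818) or without NMF replicate 2 or 3 (0.0690 and 0.0736).

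Cox4i1, Cox5a and Cox6a1 did not pass the test. Cox4i1, the main form of subunit IV, had 759, 1007 and 1028 CPM in pCAF replicates 1 to 3, against 1115, 1208, 1053 and 1075 CPM in NMF replicates 1 to 4. All pCAF libraries lay below all NMF libraries by a small margin, with a log2 fold change of -0.26 (adjusted p = 0.470). Cox5a, which pairs with it, had 116, 434 and 464 CPM in pCAF, against 121, 214, 166 and 111 CPM in NMF. In pCAF replicate 1 it sat among the NMF values, and without that library its fold was 2.93 (adjusted p = 0.00182), against 2.21 with it (0.0775). Cox6a1, the widely expressed form of subunit VIa, had 2461, 978 and 935 CPM in pCAF, against 768, 1037, 955 and 756 CPM in NMF, which set pCAF replicate 1 apart while the other 6 libraries overlapped. Cox5b and Cox6b1 had log2 fold changes of 0.36 and 0.60 (adjusted p = 0.388 and 0.108).

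**Figure D2:**
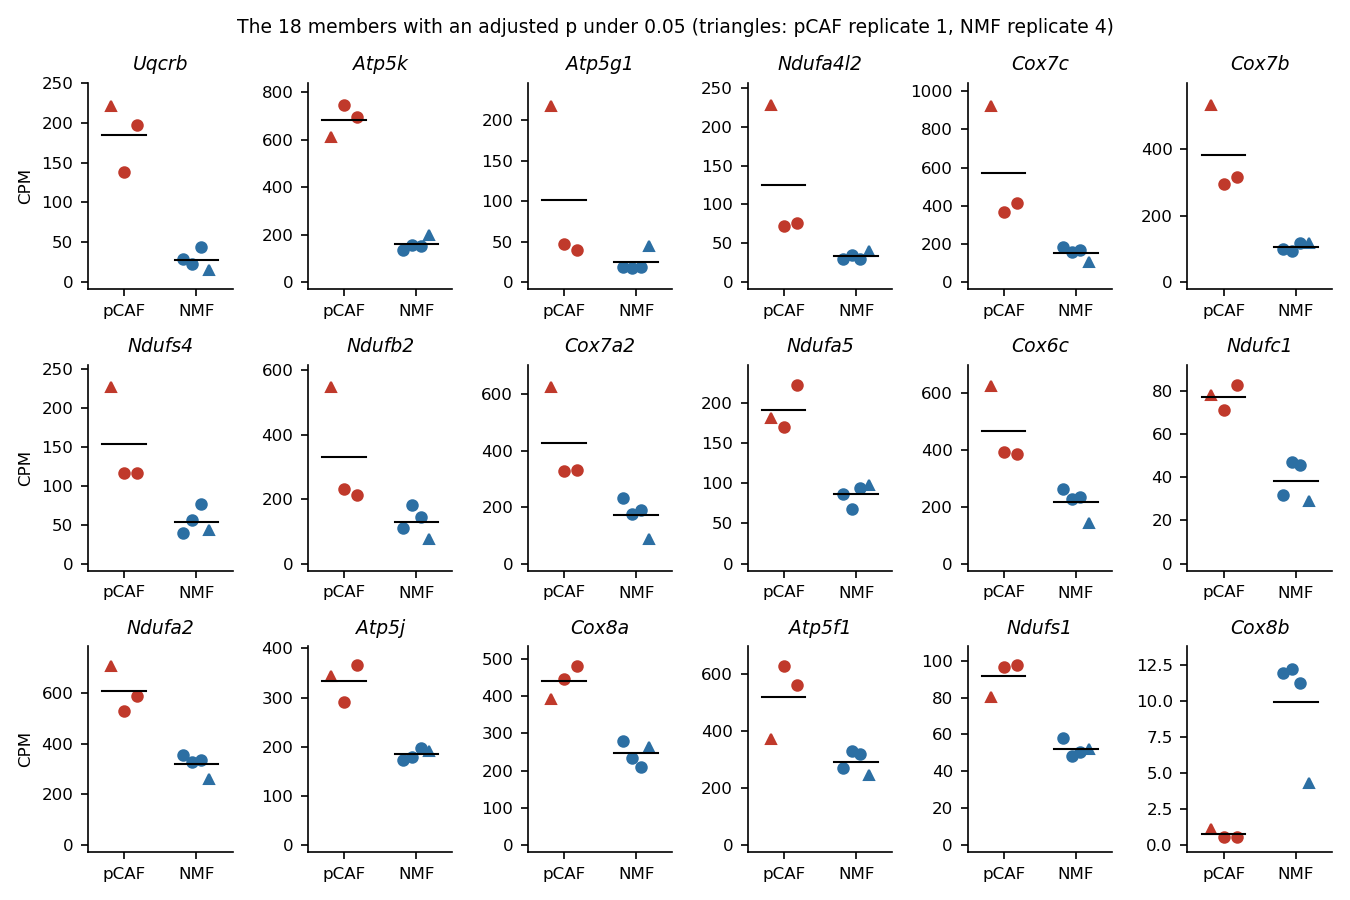
CPM of each library for the members called higher or lower, 1 panel a gene on its own linear axis, with pCAF left of NMF, a horizontal bar at the group mean; triangles mark pCAF replicate 1 and NMF replicate 4. Atp5g1 is the called member whose groups overlap, and Cox8b is the one in which all pCAF libraries lie below all NMF libraries.

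Tissue-restricted isoforms of complex IV were rare in these libraries and, where they could be counted, mostly a smaller share of their family in pCAF. Cox8b, the isoform of subunit VIII found in mouse heart, skeletal muscle and brown fat, had 2, 1 and 1 counts in pCAF, against 31, 29, 32 and 23 counts in NMF. It averaged 0.742 ± 0.318 CPM in pCAF and 9.94 ± 3.79 CPM in NMF, which is 12.5-fold lower in pCAF (adjusted p = 0.00439), and it was the only member that passed the test in that direction with all libraries. Of the counts of Cox8a, Cox8b and Cox8c, Cox8b made up 0.281, 0.126 and 0.115% in pCAF, against 4.12, 4.96, 5.12 and 1.61% in NMF. Cox7a1, the heart and muscle form of subunit VIIa, had 2, 16 and 15 counts in pCAF, against 34, 31, 37 and 30 counts in NMF (adjusted p = 0.367). In CPM the groups overlapped, with 1.11, 9.01 and 8.31 CPM in pCAF, against 13.1, 13.1, 13.0 and 5.60 CPM in NMF. Of the counts of Cox7a1 and Cox7a2, Cox7a1 made up 0.177, 2.67 and 2.44% in pCAF, against 5.35, 6.90, 6.47 and 5.95% in NMF. Cox7a2, the larger part of that total, was itself higher in pCAF. Cox6b2, a form of subunit VIb known from testis, made up 0.166, 1.13 and 1.23% in pCAF, against 2.40, 2.41, 1.53 and 2.21% in NMF, taken over the counts of Cox6b1 and Cox6b2, and its own log2 fold change was -0.92 (adjusted p = 0.300). For these 3 isoforms every pCAF share was below every NMF share, and none of the shares was given a test.

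Cox4i2, the form of subunit IV best known from lung, had 0, 1 and 5 counts in pCAF, against 36, 20, 17 and 6 counts in NMF. Its groups overlapped through NMF replicate 4, and the adjusted p was 0.0961 with all libraries and 0.0366 without that one. Cox7a2l, which links complex III to complex IV in supercomplexes, likewise had 159.7, 161 and 199 CPM in pCAF, against 304, 367, 275 and 89.3 CPM in NMF, and it was lower in pCAF without NMF replicate 4 (adjusted p = 0.0258, against 0.334). Cox6a2, the heart and muscle form of subunit VIa, had 7, 0 and 1 counts in pCAF, against 5, 4, 4 and 54 counts in NMF and was not tested. Skeletal muscle markers summed to 16.1 to 61.0 CPM in pCAF and to 59.5 to 223 CPM in NMF, with 3 of 6 tested lower and the highest sum in NMF replicate 4, where Cox6a2 was also highest. Brown adipocyte markers summed to 17.2 to 94.8 CPM in pCAF and to 9.66 to 19.0 CPM in NMF. The 1 of them with enough counts for a test, Dio2, was higher in pCAF, with 94.8, 22.0 and 17.2 CPM in pCAF, against 2.70, 2.53, 4.22 and 9.52 CPM in NMF (adjusted p = 0.00697). Among the others, Ucp1 had 0, 1 and 0 counts in pCAF, against 9, 20, 27 and 17 counts in NMF, and Cidea and Elovl3 were at 0 counts in pCAF. Cpt1b was at 0 counts in all 7 libraries. The part of muscle or brown fat RNA in the isoform counts was not tested.

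**Figure D3:**
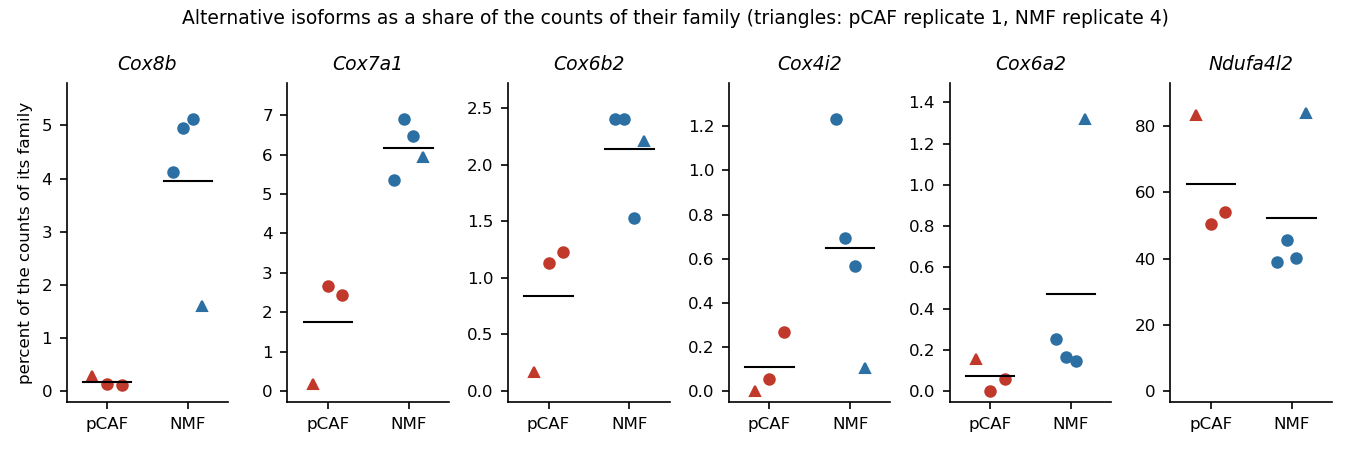
Share of each isoform in the counts of its own gene family, in percent, by library with pCAF left of NMF and a bar at the group mean; triangles mark pCAF replicate 1 and NMF replicate 4. The shares of Cox8b, Cox7a1 and Cox6b2 lie lower in all pCAF libraries than in all NMF libraries, whereas those of Cox4i2, Cox6a2 and Ndufa4l2 overlap.

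Ndufa4l2, a relative of Ndufa4 known as a target of the hypoxia factor HIF-1 that lowers complex I activity, rose in pCAF. It had 227, 72.1 and 76.5 CPM in pCAF replicates 1 to 3, against 29.4, 34.6, 29.2 and 39.8 CPM in NMF replicates 1 to 4. The groups did not overlap, and the fold of 3.76 (log2 1.91 ± 0.41 SE, adjusted p = 0.00642) was 2.22 without pCAF replicate 1 (adjusted p = 0.00351). Ndufa4 itself had 45.5, 71.0 and 65.4 CPM in pCAF, against 46.0, 41.4, 43.6 and 7.66 CPM in NMF, with overlapping groups (log2 0.82, adjusted p = 0.266). NMF replicate 4 was low for Ndufa4, and Ndufa4l2 as a share of the counts of the pair was 83.3, 50.4 and 53.9% in pCAF, against 39.0, 45.6, 40.1 and 83.9% in NMF.

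In complex V, the ATP synthase, 4 of 14 tested members were higher in pCAF and none was lower, with a median log2 fold change of 0.58. The median was 0.45, with 7 of 15 higher and 1 lower, without pCAF replicate 1 and NMF replicate 4. The higher shares were 28.6% with all libraries and 46.7% without both, against 14.3% and 25.9% of all genes tested. The lower share without both was 6.67%, against 26.9%. All 4 called with all libraries belong to the membrane sector and the peripheral stalk, where 9 members were tested and the median was 0.84. None of the 5 members of F1, the catalytic head with its central shaft, passed, with a median of 0.20. No test of the difference between these sectors was made. Each of the 4 called members has at least 1 near-identical copy of its 3′ end elsewhere in the genome. Of the 9 tested members of the membrane sector and stalk, Atp5g3 alone has none, whereas in F1 Atp5c1 alone has a copy. The part that such copies play in this difference was not tested. Over all of complex V, leaving out NMF replicate 1 or 2 gave 1 higher member, and NMF replicate 3 gave 2. In these fits 9.96, 9.92 and 11.0% of all genes tested were higher. Atp5k, subunit e, which helps ATP synthases form dimers, had 612, 746 and 695 CPM in pCAF replicates 1 to 3, against 135, 157, 150.3 and 196 CPM in NMF replicates 1 to 4. The groups were far apart with little spread in each, at a fold of 4.28 (log2 2.10 ± 0.25 SE, adjusted p = 2.41e-04), the smallest adjusted p among the members. The call held under every alternative run, and 1 copy of its 3′ end is annotated.

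Atp5j, coupling factor F6 of the peripheral stalk, averaged 333 ± 38.0 CPM in pCAF and 185 ± 11.3 CPM in NMF, a fold of 1.81 (adjusted p = 0.0167). It was not called without pCAF replicate 3 (adjusted p = 0.0682) or without NMF replicate 1 or 2 (0.0615 and 0.0554). Atp5f1, subunit b of the same stalk, had 372, 626 and 559 CPM in pCAF, against 270.0, 329, 318 and 245 CPM in NMF. Its fold of 1.79 (adjusted p = 0.0379) passed the test with all libraries and without pCAF replicate 1, but not without pCAF replicate 2 or 3 (adjusted p = 0.149 and 0.111) or any NMF library (0.104, 0.0712, 0.0729 and 0.0519). Both genes were nonetheless above NMF in all 3 pCAF libraries. Each has 1 copy of its 3′ end. Atp5o, the subunit that ties the stalk to the head, was higher without pCAF replicate 1 (adjusted p = 0.0390, against 0.0591 with it).

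Atp5g1, Atp5g2 and Atp5g3 all encode the same mature c subunit of the rotor ring. Atp5g1 had 218, 46.8 and 39.9 CPM in pCAF, against 18.9, 17.7, 18.7 and 44.6 CPM in NMF. The groups overlapped through NMF replicate 4, and pCAF replicate 1 was far above all other libraries. Its fold of 4.01 (adjusted p = 0.0310) was 1.69 without pCAF replicate 1 (adjusted p = 0.158), and the call was also lost without NMF replicate 1, 2 or 3 (adjusted p = 0.0946, 0.0933 and 0.0867). Its 3′ end matches transcripts of 5 other genes, 2 of them pseudogenes. Atp5g3 had 895, 965 and 874 CPM in pCAF, against 522, 768, 721 and 648 CPM in NMF, with no overlap but no call (adjusted p = 0.194), and Atp5g2 had 0, 7 and 8 counts in pCAF, against 6, 10, 21 and 3 counts in NMF and was not tested.

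In F1, Atp5b, the beta subunit that makes ATP, had 956, 1087 and 1102 CPM in pCAF replicates 1 to 3, against 795, 749, 799 and 921 CPM in NMF replicates 1 to 4. All pCAF libraries were above all NMF libraries by a small margin, with a log2 fold change of 0.36 that did not pass the test (adjusted p = 0.279). Atp5a1, the alpha subunit, overlapped between the groups at 0.20 (adjusted p = 0.627). Atp5c1, the gamma shaft, had 897, 395 and 375 CPM in pCAF, against 265, 308, 303 and 282 CPM in NMF (adjusted p = 0.0561, and 0.0420 without pCAF replicate 3). The epsilon subunit Atp5e had 0.15 and the delta subunit Atp5d -0.27 on the log2 scale (adjusted p = 0.742 and 0.467).

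Usmg5 and 2010107E04Rik encode complex V subunits that fall outside the naming rule and were counted with the other lists. Usmg5, which is needed to keep ATP synthase stable, averaged 138 ± 126 CPM in pCAF and 5.54 ± 2.91 CPM in NMF (SD, n = 3 and 4), a fold of 23.7 (adjusted p = 6.69e-04) that was 11.3 without pCAF replicate 1, and 3 copies of its 3′ end are annotated. 2010107E04Rik, a small proteolipid of the same membrane sector, had 299, 216 and 268 CPM in pCAF replicates 1 to 3, against 45.2, 44.8, 42.6 and 48.2 CPM in NMF replicates 1 to 4. Its fold was 5.77 (adjusted p = 6.69e-05), with pCAF above NMF in every library and the call held under each setting tried for it. Ndufab1, the acyl carrier protein of complex I, is also outside the rule, with a log2 fold change of 0.63 (adjusted p = 0.0655). Atp5s and Atp5sl, kept apart from the complexes, were below NMF in all 3 pCAF libraries at -1.21 and -0.91 on the log2 scale (adjusted p = 0.156 and 0.0502). Atp5sl, an assembly factor of complex I in spite of its name, was lower without pCAF replicate 3 (adjusted p = 0.0455).

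Summed over all its genes, each complex had a higher mean CPM in pCAF, least so for complex I. The 85 members summed to 27552, 22325 and 22549 CPM in pCAF, against 17111, 18993, 18336 and 15375 CPM in NMF. Every pCAF library was above every NMF library, and the means of 24142 ± 2955 CPM in pCAF and 17454 ± 1590.3 CPM in NMF (SD, n = 3 and 4) stood at a ratio of 1.38, or 1.24 without pCAF replicate 1 and NMF replicate 4. Complex I summed to 8557, 6619 and 6768 CPM in pCAF, against 5834, 6637, 6274 and 5068 CPM in NMF. These groups overlapped, since pCAF replicate 2 was just below NMF replicate 2, at a ratio of 1.23, or 1.07 without both libraries. Complex II averaged 990.1 ± 159 CPM in pCAF and 730.0 ± 36.5 CPM in NMF, a ratio of 1.36 (1.23 without both libraries), and complex III 2585 ± 149.9 CPM in pCAF and 1775 ± 251 CPM in NMF, a ratio of 1.46 (1.32 without both). Complex IV averaged 6173 ± 1359 CPM in pCAF and 3958 ± 509 CPM in NMF, a ratio of 1.56 that was 1.28 without both libraries, and complex V 7054 ± 231 CPM in pCAF and 4987 ± 239 CPM in NMF, a ratio of 1.41 (1.38 without both). For complexes II to V no NMF library reached the lowest pCAF library. As a share of the raw counts of a library, with no TMM factor, the members took 2.27, 2.10 and 2.14% in pCAF, against 1.85, 2.02, 1.92 and 1.65% in NMF. Complex I took 0.706, 0.623 and 0.642% in pCAF, against 0.631, 0.707, 0.657 and 0.544% in NMF, with the highest share in NMF replicate 2. No test was run on the sums.

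**Figure D4:**
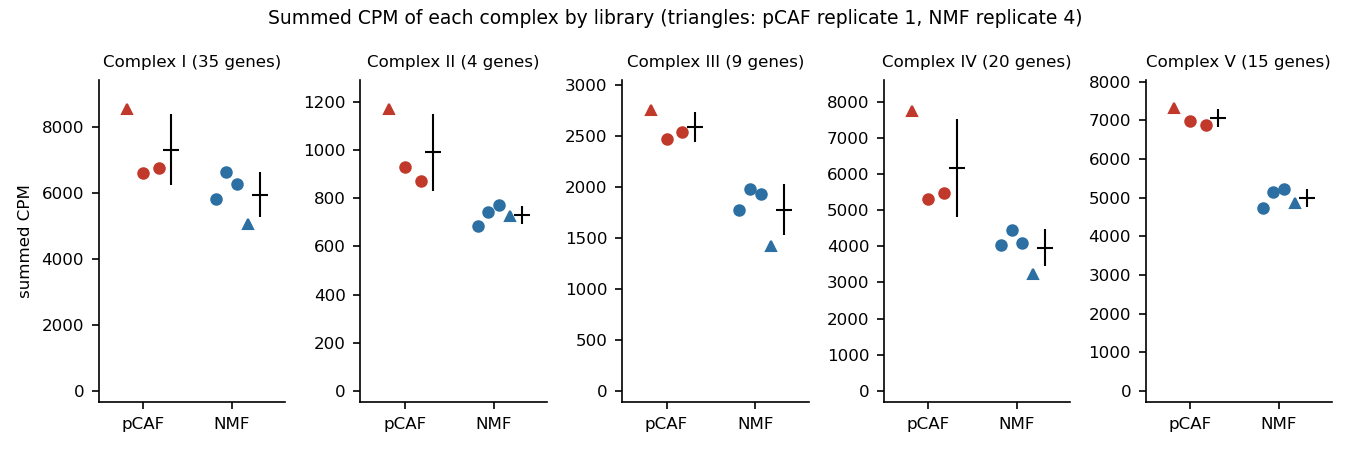
Summed CPM of the members of each complex by library, 1 panel a complex on its own linear axis from 0, with pCAF left of NMF; crosses give mean and SD, and triangles mark pCAF replicate 1 and NMF replicate 4. pCAF replicate 1 is the highest library in every panel, and the groups overlap in complex I alone.

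pCAF replicate 1 and NMF replicate 4 departed from their groups in different ways. In pCAF replicate 1, 14 of 79 tested members were more than 1 log2 unit above the mean of pCAF replicates 2 and 3, among them Atp5g1, Ndufa4l2, Ndufa3 and Uqcrc1, and 9 were more than 1 unit below, among them Cox7a1, Uqcrfs1 and Cox5a. Between pCAF replicates 2 and 3 the median gap was 0.11 log2 units, and 5 members differed by more than 0.5. In NMF replicate 4, 1 member (Atp5g1) was more than 1 unit above the mean of NMF replicates 1 to 3, and 13 were more than 1 unit below, led by Ndufa4, Cox4i2 and Ndufb4. The median deviation was 0.16 in pCAF replicate 1 and -0.27 in NMF replicate 4. The first is upward in pCAF and the second downward in NMF, and the members' median log2 fold change was 0.44 with both libraries and 0.17 without them. The medians over all genes tested were -0.02 and -0.04. Such deviations were not counted over all genes, where both libraries also stood apart, so they are not read as particular to the members.

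**Figure D5:**
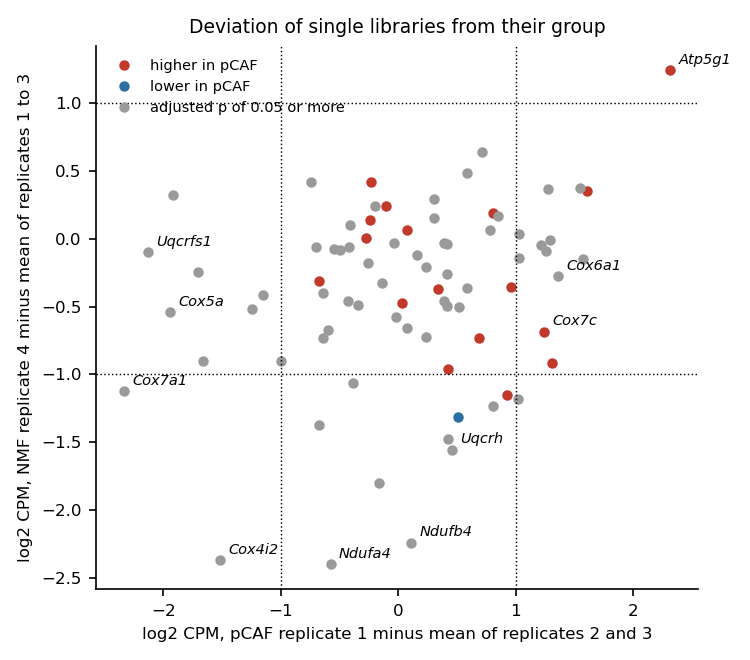
Each point is one tested member, placed by the log2 CPM of pCAF replicate 1 minus the mean of pCAF replicates 2 and 3 (horizontal) and of NMF replicate 4 minus the mean of NMF replicates 1 to 3 (vertical), with dotted lines at 1 log2 unit either way. Atp5g1 lies beyond both upper lines, and Ndufa4, Cox4i2 and Ndufb4 lie lowest on the vertical axis.

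Genes that build or feed the chain were taken from lists and, with all libraries, read against the same background of 14.3% higher and 14.2% lower. With 1 library left out, 9.92 to 18.3% of all genes tested were higher and 9.6 to 19.8% were lower. Of the assembly factors, 2 of 14 tested for complex I, 0 of 3 for complex II, 0 of 5 for complex III and 2 of 19 for complex IV were higher, and none was lower. Without NMF replicate 1 or 2 the count for complex I factors was 0, without pCAF replicate 2 or NMF replicate 3 it was 1, and that for complex IV factors was 1 without NMF replicate 1 and 4 without pCAF replicate 1. Without pCAF replicate 1, 1 complex III factor was lower, and 2 were without NMF replicate 4. Without pCAF replicate 3, 1 complex I factor was lower. Without pCAF replicate 1 and NMF replicate 4 together, 3 complex I and 4 complex IV factors were higher. In that fit 2 complex I, 2 complex III and 3 complex IV factors were lower. Of all genes tested, 25.9% were higher and 26.9% lower there. For the complex II factors no gene passed at an unadjusted p under 0.05, and for the complex III factors 1 did. Of all 10535 genes tested, 4221 did. Cmc1, a chaperone of early complex IV assembly, averaged 78.9 ± 6.93 CPM in pCAF and 23.9 ± 4.45 CPM in NMF, a fold of 3.30 (adjusted p = 0.00106), and this held without each single library. Cox17, which delivers copper to complex IV, had a fold of 2.39 (adjusted p = 0.0121, and 0.0508 without NMF replicate 1). Timmdc1, which assembles the membrane arm of complex I, had a fold of 3.79 (adjusted p = 0.0183). That fold was 2.48 without pCAF replicate 1, and the call was lost without NMF replicate 1 or 2 (adjusted p = 0.0541 and 0.0614). Tmem126a, another complex I factor, had a fold of 1.87 (adjusted p = 0.0307) and was not called without pCAF replicate 2 or NMF replicate 1, 2 or 3 (adjusted p = 0.0770, 0.0957, 0.0737 and 0.0549).

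Atpif1, the inhibitor that stops ATP synthase from running backward, had 601, 616 and 540.4 CPM in pCAF replicates 1 to 3, against 243, 290.1, 304 and 188 CPM in NMF replicates 1 to 4. It was higher in every pCAF library, at a fold of 2.29 (adjusted p = 0.00608) that held without each single library, and it was the 1 of 3 tested complex V assembly and inhibitor genes to pass. Of 12 tested factors of mitochondrial biogenesis, 1 was higher and none lower, with a median of 0.04. Leaving out pCAF replicate 1, 2 or 3 gave 1 lower factor, and leaving out pCAF replicate 1 and NMF replicate 4 together gave 2. In these fits 19.8, 10.2, 10.3 and 26.9% of all genes tested were lower. The higher one was Yy1, a general transcription factor, at a fold of 1.79 (adjusted p = 0.0388), and it did not pass when pCAF replicate 2 or 3 was left out (adjusted p = 0.0619 and 0.0985) or any single NMF library (0.0585, 0.0892, 0.115 and 0.0519). Ppargc1a, the coactivator that drives mitochondrial biogenesis in brown fat and muscle, had 0 counts in all 7 libraries. Of the 6 genes tested that bring electrons to ubiquinone or the chain by other routes, none passed, with 1 at an unadjusted p under 0.05. That unadjusted threshold was met by 4221 of all 10535 genes tested. Without pCAF replicate 1, 2 of 7 were lower, and without NMF replicate 4, 1 of 6 was higher.

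The list of tricarboxylic acid cycle enzymes had 6 of 12 tested genes higher and 1 lower, with a median of 0.71. Leaving out pCAF replicate 2 gave 4 higher genes, pCAF replicate 3 or NMF replicate 1 gave 2, and NMF replicate 2 or 3 gave 3. In these fits 9.92 to 11.1% of all genes tested were higher. Sucla2, a subunit of succinyl-CoA ligase, averaged 93.0 ± 17.8 CPM in pCAF and 37.3 ± 4.64 CPM in NMF, a fold of 2.49 (adjusted p = 0.00378). Idh3a, of the NAD-dependent isocitrate dehydrogenase, averaged 104 ± 25.2 CPM in pCAF and 48.0 ± 3.28 CPM in NMF, a fold of 2.16 (adjusted p = 0.00933). Both calls held without each single library. Ogdh, of the 2-oxoglutarate dehydrogenase complex, fell to 2.05 ± 1.18 CPM in pCAF, against 8.13 ± 1.13 CPM in NMF (adjusted p = 0.0308), and this was not called without pCAF replicate 3 or NMF replicate 1, 2 or 3 (adjusted p = 0.113, 0.0773, 0.0627 and 0.0562). Of 13 genes for membrane pores, carriers and import, 5 were higher and none lower, with a median of 0.58, and 3 were higher without pCAF replicate 2 or 3 or NMF replicate 1, 2 or 3. Those fits had the same 9.92 to 11.1% of all genes tested higher. Vdac2 and Vdac1, channels of the outer membrane, had folds of 2.11 and 2.45 (adjusted p = 0.00550 and 0.00739), and both calls held without each single library.

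Promoters were read from RefSeq windows on GRCm38.p6, which covered 69 of the 85 members, for 4 motifs known from nuclear respiratory genes, on both strands of the 250 bases before each annotated start. The NRF1 motif, searched as GCGC and TGCGC with any base between them, was in the window of 10 of the 65 tested members with one (15.4%), against 9.41% of the 8041 tested genes with a window. Over all 69 members it was in 13 (18.8%), against 4.23% of all 27025 genes with a window. Among the tested members, the ETS motif CCGGAAG was in 12 (18.5%, against 15.9% of tested genes), the YY1 motif AAGATGGC in 2 (3.08%, against 2.33%) and the ERR motif TNAAGGTCA in 2 (3.08%, against 0.821%). NRF1 was matched in 2 of 12 members that rose and in 8 of 52 that were not called, and ETS in 1 of 12 and 11 of 52. A match is a match of letters, and no binding was measured. The windows of the members that rose and hold a match, Ndufa5, Atp5k and Atp5j, and of Cox8b, the member that fell and holds none, are printed 5′ to 3′ on the strand of the gene, the minus strand in each, with motif letters in capitals.
Ndufa5 (chr6:24527691-24527940): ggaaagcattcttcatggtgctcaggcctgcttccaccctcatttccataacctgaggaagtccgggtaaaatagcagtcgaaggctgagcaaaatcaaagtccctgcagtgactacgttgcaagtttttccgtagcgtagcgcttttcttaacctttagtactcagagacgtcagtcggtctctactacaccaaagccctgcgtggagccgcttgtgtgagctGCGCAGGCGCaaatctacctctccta
Atp5k (chr5:108434400-108434649): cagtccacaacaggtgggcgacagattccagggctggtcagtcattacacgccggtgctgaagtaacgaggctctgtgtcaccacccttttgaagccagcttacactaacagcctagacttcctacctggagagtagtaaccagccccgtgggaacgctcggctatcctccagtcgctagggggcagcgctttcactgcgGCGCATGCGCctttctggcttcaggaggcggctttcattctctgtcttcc
Atp5j (chr16:84834977-84835226): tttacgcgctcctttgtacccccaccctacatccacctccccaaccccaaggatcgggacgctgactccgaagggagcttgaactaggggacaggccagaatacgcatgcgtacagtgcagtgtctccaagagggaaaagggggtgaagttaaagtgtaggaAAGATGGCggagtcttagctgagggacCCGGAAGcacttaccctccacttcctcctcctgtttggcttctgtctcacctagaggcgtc
Cox8b (chr7:140900447-140900696): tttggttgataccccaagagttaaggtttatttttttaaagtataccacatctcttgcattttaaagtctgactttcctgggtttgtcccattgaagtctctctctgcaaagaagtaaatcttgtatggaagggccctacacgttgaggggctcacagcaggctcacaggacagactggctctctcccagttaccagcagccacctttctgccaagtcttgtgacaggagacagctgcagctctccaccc
The match in Ndufa5 begins 26 bases before the start, and it lies on the other strand. In Atp5k the NRF1 match begins 50 bases before the start. Atp5j holds a YY1 match 88 bases and an ETS match 61 bases before the start, in the first of its 2 windows. Ndufa5 has another annotated start, and its other window holds the same NRF1 letters 190 bases upstream.

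The 6 members that were not tested had too few counts for the filter, and 3 of them had none. Ndufs5, Cox7b2 and Cox8c had 0 counts in all libraries, which with a floor of 3 counts over a group allows up to 0.557 CPM in pCAF and 0.228 CPM in NMF. These limits cover counting error only. Cox7b2 and Cox8c are testis forms, whereas Ndufs5 is a subunit of complex I in every tissue. The 3′ end of Ndufs5 matches that of the gene BC002163, which had 11 to 79 counts per library, and how reads shared by both were assigned is not given in the sources used here. Ndufa11, also a constitutive complex I subunit, had 0, 0 and 2 counts in pCAF, against 2, 0, 5 and 7 counts in NMF. Cytochrome c, the carrier between complexes III and IV, was barely counted, with 0 to 4 counts of Cycs per library and 0 of Cyct. Such values in genes that every cell uses limit what a low count means in this table.

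Calls were also counted by copies. Of the 56 tested members with no near-identical copy of their 3′ end elsewhere, 9 were higher (16.1%) and 1 lower with a median of 0.32, and of the 23 with a copy, 8 were higher (34.8%) with a median of 0.73. Among the 43 with neither a copy nor an exon of another gene over their 3′ end, 6 were higher (Cox7b, Ndufs4, Cox7a2, Ndufa5, Ndufc1 and Cox8a) and 1 was lower (Cox8b), and the median was 0.28. The higher share of these 43, 14.0%, was near the 14.3% of all genes tested. Strand use in the counting is not given in the sources used here, so overlapping genes cannot be told apart. Across the 17 higher members, 8 calls held without each single library: Uqcrb, Atp5k, Cox7b, Cox7c, Ndufa4l2, Ndufa5, Ndufs4 and Ndufa2. Of these 8, only Cox7b, Ndufa5 and Ndufs4 have neither a copy nor an overlap. Uqcrb, Atp5k and Cox7c have copies, and an exon of another gene lies over the 3′ end of Ndufa2 and of Ndufa4l2. Among the other higher members, Ndufs1 has such overlaps and Cox6c has a copy.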

How the data were processed

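The deposited table held raw counts per gene symbol for the 7 libraries. Per the labels' protocols the libraries were made from 3′ ends of polyadenylated RNA, and the submitters' processing notes name mm10, HTSeq, STAR 2.4.2a and bcl2fastq without their roles. Annotation, strandedness, handling of reads with several matches and use of molecular identifiers are not given in the sources used here. Groups came from titles.

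The tests ran in edgeR 4.0.16 (R 4.3.3), with filterByExpr, TMM factors, a robust quasi-likelihood fit of the group over the whole table, and a two-sided F test with Benjamini-Hochberg adjustment over the 10535 genes tested, threshold 0.05. Fold changes and their SE are those fitted, pCAF over NMF. CPM used effective library sizes, and log2 CPM a prior count of 2. Total counts ran from 1885039 to 4990070. On simulated counts with planted changes, the fit recovered 3 of 67 at 2-fold, 34 of 67 at 4-fold and 54 of 66 at 8-fold. Of 96 genes called there, 5 were false. In the data 1503 genes were called higher and 1491 lower, so the simulated rates do not carry over directly. A difference that did not pass the test is thus not shown to be absent. Alternatives were DESeq2 1.42.0, voom of limma 3.58.1, other scalings and filters, thinning, a replicate block and left-out libraries.

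Members and lists were chosen with earlier results of these data known. Genes named were the marker subunits, complex II, isoform families, complex I core subunits, up to 3 called members per complex and direction, and up to 2 per list; a gene that this rule covers is not reported here. Other members, the Ppargc1a, Cycs, Cyct, Ndufab1, Dio2 and Ucp1 counts and the markers at 0 were named after their values were seen. Copies of a 3′ end were transcripts in GENCODE M21, of genes that do not overlap the member, that matched at least 80 of its last 300.0 bases at 95% identity or more (blastn 2.17.0). Nothing says that libraries of a group came from separate animals beyond being called biological replicates, so p-values rest on the spread of these libraries, which may be technical.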

Additional observations from a re-analysis of the deposited data

Results flagged for a closer look

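In NMF, where 4 libraries allow an extreme one to be singled out, 46 values were examined and 5 had such a library, each time NMF replicate 4. Chance singles out about 1 in 20 of independent values, but these 46 come from the same 4 libraries. NMF replicate 4 also stood apart over all genes, so the 5 are not read as particular to these members. Cox6a2, the muscle form of subunit VIa, had 10.1 CPM in NMF replicate 4, against 1.41 to 1.93 CPM in NMF replicates 1 to 3. Atp5g1, of the c ring, had 44.6 CPM there, against 17.7 to 18.9 CPM in the others. Cox7a1, Cox8b and Ndufa4 were low instead. Cox7a1 had 5.60 CPM in NMF replicate 4, against 13.0 to 13.1 CPM in the others. Cox8b had 4.30 CPM, against 11.3 to 12.2 CPM, and Ndufa4 had 7.66 CPM, against 41.4 to 46.0 CPM. NMF replicate 4 also had the highest sum of skeletal muscle markers and the lowest sum of adipocyte markers among the NMF libraries, 223 and 1873 CPM, and whether either bears on these members was not tested.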

How the results depend on the processing

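Against 17 members higher and 1 lower with all libraries, the count of higher members was 11 with library totals (13.9% of members, against 10.6% of all genes tested). It was 8 with the replicate number as a block (10.1% of members, against 9.28% of all genes tested). Leaving out pCAF replicate 1 and NMF replicate 4 together gave 28 (25.9% of all genes tested), and leaving out one library gave 10 to 23 (9.92 to 18.3%). The count of lower members was 2 with DESeq2 size factors (14.4% of all genes tested), 2 with library totals (18.1%) and 2 with upper quartile factors (14.8%). It was 3 with the DESeq2 test (17.9%), 9 without both libraries (26.9%) and 1 to 3 when one library was left out (9.6 to 19.8%). Atp5sl, not a subunit, was among the lower under each of these scalings and with the DESeq2 test. It was also among them without both libraries and without pCAF replicate 3. The labels do not say that replicate numbers pair the libraries, and they give no shared animal or day. Deviations from the group means of same-numbered libraries correlated at -0.09, 0.08 and -0.01, and those of all pairs at -0.10 to 0.11. With so few libraries these values cannot decide whether the numbers pair them. The fewer libraries of a reduced fit and its fewer degrees of freedom are part of its construction, and the cause of the other changes was not tested. The log2 fold change of Sdha was -0.20 with library totals, -0.04 without both libraries and -0.23 to 0.28 with one left out. That of Uqcrc1 was -0.0067, -0.34 and -0.44 to 0.56 in the same settings. With one library left out it was -0.0503 to 0.76 for Sdhd, -0.22 to 0.59 for Ndufv1 (-0.22 without both) and -0.67 to 0.13 for Ndufs7 (-0.70 without both). Of the 17 higher calls, 11 held under each scaling and 6 under all 17 alternatives: Uqcrb, Atp5k, Cox7b, Cox7c, Ndufa4l2 and Ndufa5. Cox8b was called lower wherever it was tested and had too few counts for a filter at a mean of 10 CPM. Counts of 0 to 5 per library limit the rare isoforms to large differences.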
